A study of Homo sapiens with 104 samples.

Results

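POLH, POLI, POLK, REV1, REV3L, MAD2L2, RAD18 and USP1 encode the translesion polymerases and their regulators. They were taken as the probe sets that carry one of these names as their single gene symbol in the platform annotation. All 8 genes were found, with 24 probe sets of 54675 on the array, and they are 8 of the 19775 genes with a single-symbol probe set. All 8 passed the filter that left 13842 genes for testing.

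The series measured total RNA of 26 human lymphoblastoid lines, B cells immortalised in culture, on Affymetrix arrays with biotin-labelled cRNA. Each line was measured after MNNG and untreated, in growth at mid log phase, with 2 arrays per line and condition, 52 arrays after MNNG and 52 untreated. MNNG is an alkylating agent that methylates DNA; the sources used here give neither its dose nor the time after exposure. There were 24 panel lines, called line 1 to line 24, plus TK6 and MT1. TK6 is a lymphoblastoid line that lacks the direct repair enzyme MGMT. MT1 is a derivative of TK6 that also lacks mismatch repair, as a single derived line, so the repair defect cannot be told apart from any other difference between the lines. Nothing in the labels says that the 2 arrays of a group came from separate cultures, so p-values over arrays may measure technical spread only.

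Translesion synthesis lets a cell copy DNA past a damaged base. When a replication fork stalls, RAD18 attaches ubiquitin to the sliding clamp PCNA, and the mark recruits specialised polymerases that insert a base opposite the lesion. REV3L with MAD2L2 then extends the primer, and USP1 removes the ubiquitin.

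Of the 52 MNNG arrays, 22 were left out because a control probe set for the spiked-in cre transcript lay more than 2 log2 units below its pair: 21 arrays of panel lines and 1 of MT1. The difference between the pair was -6.45 to -5.19 in the 22 arrays left out and 0.08 to 0.83 in the 82 arrays used. MNNG arrays remained for 19 panel lines, 8 with both and 11 with 1, and none for lines 6, 7, 8, 11 and 16. TK6 kept 2 MNNG arrays and MT1 kept 1. The cells carried B-cell transcripts: all 7 markers measured by a single-symbol probe set lay above the median gene. All 8 markers of T and NK cells lay below it, with the highest, NKG7, at 6.08 on a log2 scale that starts at 5. Of 8 markers each, 2 of myeloid cells and 3 of fibroblasts and epithelia lay above the median gene. The highest of these were LYZ at 7.36 and KRT8 at 7.55, beside BLK, the lowest B-cell marker, at 7.53. MGMT lay near the start of the scale in untreated MT1 (5.27) and TK6 (5.20), and spanned 5.12 to 8.48 in the untreated panel lines.

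The upstream windows of POLH and USP1 are shown because of the changes at each gene's brightest probe set. By that reading POLH had the largest change of the 8 genes and USP1 was the one that fell in the panel. Some other probe sets of POLH, POLK and REV1 also fell there. The windows are the 250 bases before the RefSeq gene start in GRCh38.p14, 5′ to 3′ in the direction of the gene. Capitals mark a GC box, searched as GGGCGG, or the CCAAT box, on either strand. An E2F site was searched likewise as TTTCCCGC, as TTTCGCGC, as TTTGCCGC or as TTTGGCGC.
POLH, chr6:43575935-43576184, plus strand: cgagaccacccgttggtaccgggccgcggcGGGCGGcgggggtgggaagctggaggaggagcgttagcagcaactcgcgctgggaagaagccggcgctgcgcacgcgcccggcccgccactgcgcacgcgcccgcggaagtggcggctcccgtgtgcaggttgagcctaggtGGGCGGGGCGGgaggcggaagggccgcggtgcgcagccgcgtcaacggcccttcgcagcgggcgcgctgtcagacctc
USP1, chr1:62436145-62436394, plus strand: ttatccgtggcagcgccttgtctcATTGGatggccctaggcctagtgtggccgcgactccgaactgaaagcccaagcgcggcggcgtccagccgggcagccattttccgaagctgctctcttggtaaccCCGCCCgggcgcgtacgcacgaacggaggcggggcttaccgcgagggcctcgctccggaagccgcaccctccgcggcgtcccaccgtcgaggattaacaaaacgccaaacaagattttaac
The POLH window holds 3 GC boxes, the last pair overlapping, and 76.0% of its bases are G or C. The USP1 window holds 1 CCAAT box and 1 GC box, and its share of G or C is lower. RefSeq gives 11 starts for the 8 genes, and a GC box stood in 10 of these windows, against 42.6% of all 35116 promoter windows in the table. A CCAAT box stood in 2 of 11, one each for USP1 and MAD2L2, against 32.0% of all windows. An E2F site stood in 2 of 11, one each for POLI and REV3L, against 2.79%. No window of the 8 genes held a p53 half-site, which 5.57% of all windows held. A match is a description of the letters and says nothing about binding.

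The members were called about as often in TK6 as all genes were, and POLH had the largest change there. POLH and REV3L rose and POLI and MAD2L2 fell after MNNG, 4 of 8 members called against 41.2% of all genes tested, with 2 of 8 up against 21.6% and 2 of 8 down against 19.5%. The members' median change was 0.03 on the log2 scale, beside -0.03 over all genes. A call here is an adjusted p below 0.05 in limma, adjusted over the 13842 genes. In RNA from a whole culture, fewer cells of a kind and less RNA per cell cannot be told apart.

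POLH encodes DNA polymerase eta, which copies accurately past ultraviolet photoproducts and is the protein missing in the variant form of xeroderma pigmentosum. Its level, as log2 of the intensity plus 16 after quantile normalisation, was 8.35 and 8.67 in the TK6 MNNG arrays, against 6.77 and 6.92 in the untreated TK6 arrays. Both treated arrays lay more than 1 unit above both untreated ones. The fitted change was 1.66 ± 0.12 (SE), a 3.17-fold rise (limma, adjusted p = 7.35e-15). Leaving out any 1 of the 4 TK6 or 2 untreated MT1 arrays gave 1.5 to 1.82, and the mean of its 6 probe sets gave 0.82, which was also called. With the 22 arrays put back into the fit the change was 1.60 and the adjusted p 0.236, and no member was called in TK6, against 3.35% of all genes.

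REV3L encodes the catalytic subunit of polymerase zeta, the extender. Its level was 8.89 and 8.99 in TK6 after MNNG and 8.39 and 8.10 untreated. It rose by 0.69 ± 0.19 (adjusted p = 0.00285). Without the lower untreated array, replicate 2, the change was 0.54 and the adjusted p 0.0665. MAD2L2, also called REV7, is the small subunit that joins REV3L to REV1. It moved the other way, with 8.82 and 8.74 after MNNG and 9.11 and 9.04 untreated. The fall was -0.30 ± 0.09 (adjusted p = 0.00567). Leaving out 1 array gave -0.34 to -0.26, and the adjusted p passed 0.05 without untreated TK6 replicate 1 (0.0568) or without TK6 MNNG replicate 2 (0.0656).

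POLI encodes polymerase iota, an error-prone inserter. It was 6.48 and 6.53 in TK6 after MNNG and 7.24 and 6.88 untreated, a fall of -0.56 ± 0.15 (adjusted p = 0.0031). The untreated arrays lay further apart than the treated ones, and without the higher one, replicate 1, the fall was -0.38 with an adjusted p of 0.114. With values as deposited the calls of POLI (-0.40, adjusted p = 0.533) and MAD2L2 (-0.27, adjusted p = 0.356) were lost. The other 4 members did not pass in TK6. The deubiquitinase USP1 was 10.09 and 10.26 after MNNG and 10.60 and 10.28 untreated (-0.26 ± 0.16, adjusted p = 0.193). POLK, which encodes polymerase kappa, REV1, the deoxycytidyl transferase that also holds the other polymerases together, and RAD18, the ubiquitin ligase, had changes of 0.12, 0.08 and -0.01. In these 3 genes the MNNG and untreated ranges overlapped.

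In MT1 none of the 8 members was called, against 3.56% of all genes, and 2 of the 8, POLH and MAD2L2, had an unadjusted limma p below 0.05, as did 15.3% of all genes. Only 1 MNNG array of MT1 was used, and its spread was assumed to be like that of the other groups. The log2 ratio of the 3′ to the 5′ control probe sets of ACTB, a measure of RNA and labelling quality, was 0.57 in that array and 0.23 to 0.36 in untreated MT1, and 0.57 lies above every other array group. For GAPDH it was -0.01 in the MNNG array and -0.05 to 0.06 untreated. The part of this shift in the MT1 response, and in its difference from TK6, was not tested. POLH was 7.41 in the MT1 MNNG array and 6.88 and 7.26 in the untreated arrays, a change of 0.34 ± 0.15 (adjusted p = 0.241). MAD2L2 was 9.17 after MNNG and 9.49 and 9.38 untreated, a change of -0.26 ± 0.11 (adjusted p = 0.197). The treated array lay outside the untreated pair for both genes, as it did for POLI, POLK, REV1 and USP1. The share of all genes where it did so was not counted. REV3L was 8.11 after MNNG, between the untreated values of 8.24 and 8.00. RAD18 was also between its untreated arrays, and POLI, POLK and REV1 lay above theirs, by less than 0.15 in the fitted change. USP1 was 10.46 after MNNG, below 10.81 and 10.54 untreated, with a fitted change of -0.22 ± 0.19 (adjusted p = 0.677).

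**Figure D1:**
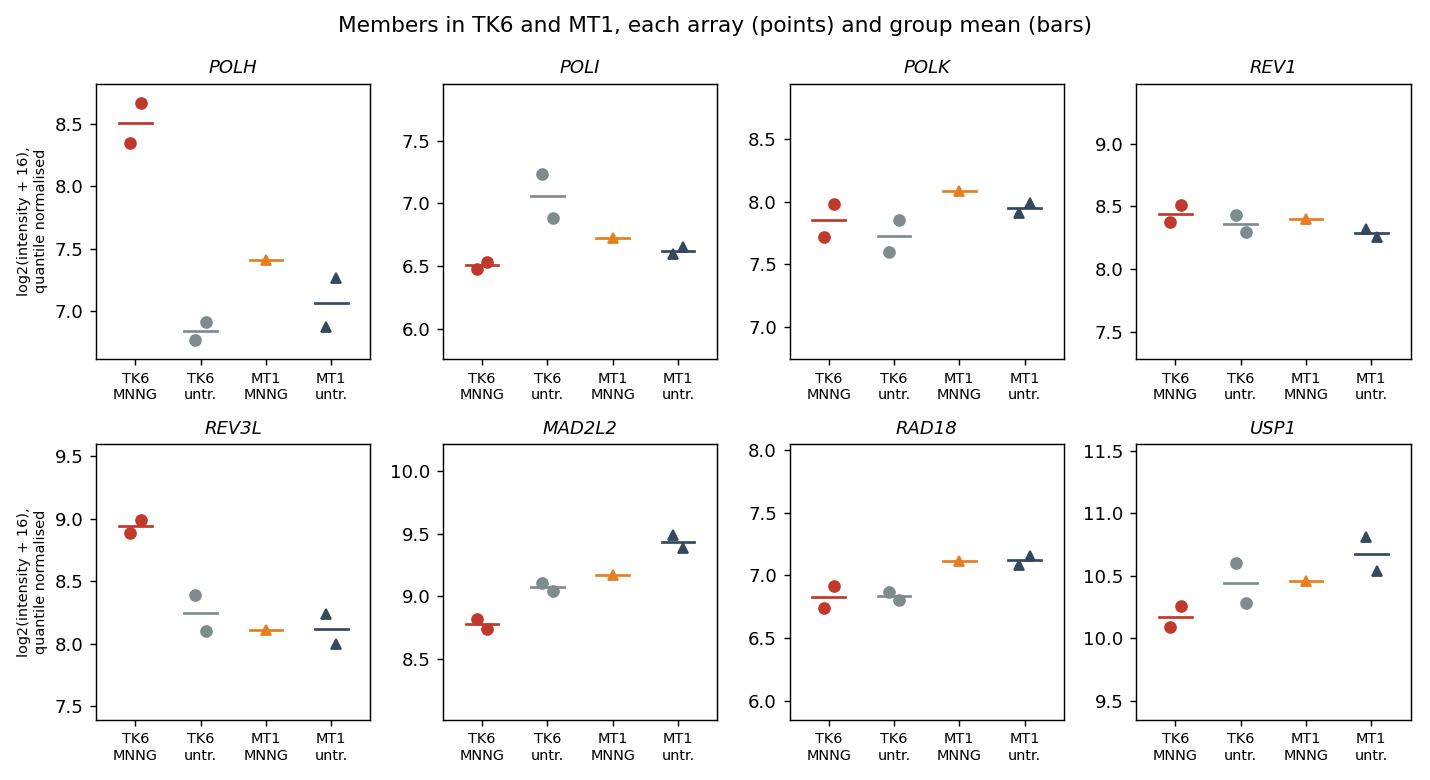
Level of each member (log2 of intensity plus 16, quantile normalised) in TK6 after MNNG and untreated, and in MT1 after MNNG and untreated; points are arrays, bars are means, and each panel spans 2.2 units. POLH in TK6 stands at 8.35 and 8.67 after MNNG, against 6.77 and 6.92 untreated, while MT1 has 1 MNNG array at 7.41.

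The difference between the TK6 and the MT1 response was tested directly. It was called for 2 of 8 members against 24.7% of all genes, 1 up (12.2% of genes) and 1 down (12.5%). The POLH change was larger in TK6 than in MT1 by 1.32 ± 0.19, a 2.50-fold difference in response (adjusted p = 8.33e-07), and stayed between 1.13 and 1.52 when any 1 array of TK6 or untreated MT1 was left out. With the 22 arrays put back it was 0.80 with an adjusted p of 0.797. The POLI change was lower in TK6 by -0.66 ± 0.24 (adjusted p = 0.0428). That call is narrow: it was lost in 12 of 19 alternatives, and the value over all 19 lay between -0.98 and -0.46. For REV3L the difference was 0.70 ± 0.30 (adjusted p = 0.09). For MAD2L2 it was -0.03 ± 0.14 (adjusted p = 0.926), so the fall seen in TK6 was not shown to be larger than the one in MT1. The other 4 differences lay between -0.05 and -0.004.

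Before treatment MT1 differed from TK6 in 2 of 8 members, against 25.2% of all genes, 1 higher (13.6% of genes) and 1 lower (11.7%). MAD2L2 was 9.49 and 9.38 in MT1 and 9.11 and 9.04 in TK6, higher by 0.36 ± 0.09 (limma, adjusted p = 0.00133). POLI was 6.59 and 6.65 in MT1 and 7.24 and 6.88 in TK6, lower by -0.44 ± 0.15 (adjusted p = 0.0314). The arrays of the 2 lines did not overlap for either gene, and the share of all genes without overlap was not counted. The MAD2L2 call was kept in each fit that left out 1 array, and was lost with values as deposited (0.36, adjusted p = 0.291), with arrays centred on their medians (0.33, adjusted p = 0.247) and with the 22 arrays put back (0.38, adjusted p = 1). The POLI call was lost in 9 of 19 alternatives, among them values as deposited (adjusted p = 0.607), arrays centred on their medians (0.054) and the fits without MT1 replicate 1 (-0.41, adjusted p = 0.139), MT1 replicate 2 (-0.46, adjusted p = 0.0836) or TK6 replicate 1 (-0.26, adjusted p = 0.392). RAD18 and POLH were 0.28 and 0.23 higher in MT1 and did not pass (adjusted p = 0.143 and 0.198). Without MT1 replicate 1 the POLH difference was 0.42 with an adjusted p of 0.0279.

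In the panel, POLH and REV1 rose after MNNG and USP1 fell, all by little. These are 3 of 8 members, against 42.6% of all genes, with 2 of 8 up against 28.7% and 1 of 8 down against 13.8%. The members' median change was 0.06 on the log2 scale and that of all genes 0.04. With the 22 arrays put back, 7 of 8 members were called, against 70% of all genes: POLH rose by 0.33, POLI by 0.29 and RAD18 by 0.46, while REV1 fell by 0.47, POLK by 0.69, MAD2L2 by 1.05 and USP1 by 2.12.

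POLH in the 19 panel lines ran from 6.76 through a median of 7.05 to 7.47 after MNNG, against 6.58, 6.88 and 7.18 untreated. It was higher after MNNG in 17 of 19 lines and the ranges overlapped. The change was 0.22 ± 0.05 (limma with the line as a block, adjusted p = 0.000312), a 1.17-fold rise. By line it ran from -0.06 in line 5 to 0.79 in line 4, which kept 1 MNNG array, and line 19 was next at 0.50. Leaving out each line in turn gave 0.19 to 0.24, and all 19 fits kept the call. The 8 lines with both MNNG arrays gave 0.20 (adjusted p = 0.0399). The call was lost without the arrays numbered 1 (0.27, adjusted p = 0.0714), which leaves fewer lines, and when arrays were centred on their medians (0.14, adjusted p = 0.0968). It was also lost with the mean of its probe sets, where the value was -0.004 (adjusted p = 0.912).

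USP1 ran from 9.49 through 10.13 to 10.54 after MNNG, against 9.75, 10.23 and 10.61 untreated, and was lower after MNNG in 16 of 19 lines. It fell by 0.17 on the log2 scale, to 0.89 of the untreated level (SE 0.03, adjusted p = 0.000205). The change was -0.36 in line 15, the lowest, and 0.17 in line 17, the highest. Without replicate 1 it was -0.14 with an adjusted p of 0.214, and the 8 lines with both MNNG arrays gave -0.20 (adjusted p = 0.00879). With no line block the adjusted p was 0.189.

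REV1 ran from 7.94 through 8.22 to 8.42 after MNNG, against 7.81, 8.11 and 8.38 untreated, and was higher in 15 of 19 lines. The rise was 0.12 ± 0.03 (adjusted p = 0.00695). This call did not hold without replicate 1 (0.14, adjusted p = 0.17), without replicate 2 (0.09, adjusted p = 0.0774) or in the 8 lines with both MNNG arrays (0.14, adjusted p = 0.0842). It was also lost with no line block (adjusted p = 0.113) and with the mean of its probe sets (0.01, adjusted p = 0.724). With arrays centred on their medians the value was -0.01.

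The other 5 members did not pass in the panel. REV3L changed by 0.10 ± 0.04 (adjusted p = 0.066), and passed without line 24, the line with its lowest change (0.12, adjusted p = 0.0273), and with values as deposited (0.13, adjusted p = 0.0155). Its direction was not stable: the value was 0.21 without replicate 1, -0.06 without replicate 2, -0.02 with arrays centred on their medians and -0.06 with the 22 arrays put back. POLK changed by 0.07, RAD18 by 0.06, POLI by 0.03 and MAD2L2 by -0.02, with 13, 11, 9 and 8 of 19 lines higher after MNNG. POLK spread the most between lines, from -0.36 in line 23, which kept 1 MNNG array, to 0.53 in line 2. Its differences in response between lines did not pass the limma F test (adjusted p = 0.372). The 3′ to 5′ ratio of ACTB moved with treatment in the panel: its log2 value ran from 0.13 through a median of 0.28 to 0.49 over 27 MNNG arrays, against -0.08, 0.05 and 0.47 over 48 untreated arrays. The ranges overlapped. In TK6 it was 0.32 to 0.46 after MNNG and 0.19 to 0.34 untreated. For GAPDH the panel medians were 0.01 after MNNG and -0.02 untreated, and TK6 had 0.05 to 0.09 after MNNG and -0.02 to 0.02 untreated. Their part in these changes was not tested.

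**Figure D2:**
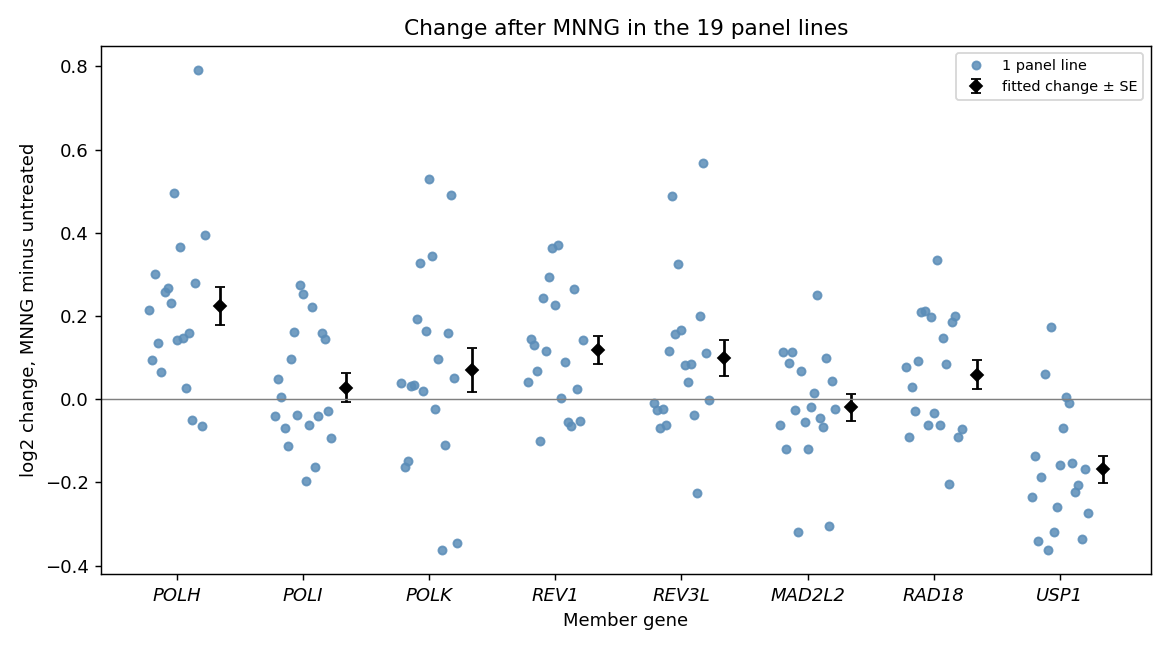
Change after MNNG (MNNG minus untreated, log2) of each member in each of the 19 panel lines (blue points) with the fitted change ± SE (black). POLH lies above 0 in 17 of 19 lines and USP1 below 0 in 16 of 19, while line 4 stands highest for POLH at 0.79.

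The panel lines were not shown to differ in the response of any member. In the F test of line by treatment, 0 of 8 members passed, against 6.75% of all genes, and 1 of the 8, POLH, had an unadjusted p below 0.05 (adjusted p = 0.164). The share of all genes with such an unadjusted p was not counted. With array weights POLH passed (adjusted p = 0.00255). Before treatment, in contrast, 7 of 8 members differed between the 24 panel lines, against 64.3% of all genes, and POLK did not pass (adjusted p = 0.104).

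USP1 had the widest untreated range of the 8, from 9.64 in line 7 through a median of 10.19 to 10.61 in line 9, a 1.96-fold span (limma F test, adjusted p = 4.24e-05). The pooled SD of duplicate untreated arrays was 0.18. None of its 23 gaps between neighbouring lines exceeded that SD, so the order of neighbours is not resolved, while the ends are apart. REV3L spanned 7.71 in line 16 to 8.65 in line 10 (median 8.12, adjusted p = 0.0058), again with no neighbouring gap above its duplicate SD of 0.23.

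POLH spanned 6.37 in line 6 to 7.18 in line 24 (median 6.86, adjusted p = 0.000161). Line 6 stood 0.21 below the next line, line 18, and 2 of the 23 neighbouring gaps exceeded the duplicate SD of 0.11. MAD2L2 spanned 8.01 in line 14 to 8.76 in line 17 (median 8.40, adjusted p = 1.14e-06), with 2 gaps above its SD of 0.09. REV1, RAD18 and POLI had ranges of 0.57, 0.58 and 0.50 and passed with adjusted p of 0.00203, 0.0254 and 0.0155. For none of these 3 did a neighbouring gap exceed the duplicate SD. The RAD18 call was lost without line 7 (adjusted p = 0.0584), line 21 (0.0574) or line 24 (0.0529). The POLI call was lost with arrays centred on their medians (adjusted p = 0.0836) and with the mean of its probe sets (0.177), and the REV3L call with that mean (0.0827). With values as deposited, MAD2L2 and USP1 passed and the other 6 did not.

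TK6 and MT1 lay at the edge of the 26 lines for several members. MAD2L2 ranked first in MT1 (9.44) and second in TK6 (9.07), both above all 24 panel lines. POLI ranked first in TK6 (7.06), above the highest panel line at 6.63, and at rank 4 in MT1 (6.62). POLK ranked lowest of 26 in TK6 (7.73). USP1 ranked first in MT1 (10.68). POLH ranked 2 in MT1, REV1 ranked 3 in TK6 and 4 in MT1, and POLK ranked 24 in MT1. RAD18 ranked 5 in MT1 and 21 in TK6. Further inside, REV3L ranked 11 in TK6 and 14 in MT1, and in TK6 POLH ranked 14 and USP1 9. MT1 derives from TK6, so their ranks are not separate observations. These ranks are a description, since no test set the 2 lines against the panel. The share of all genes with such ranks was not counted.

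**Figure D3:**
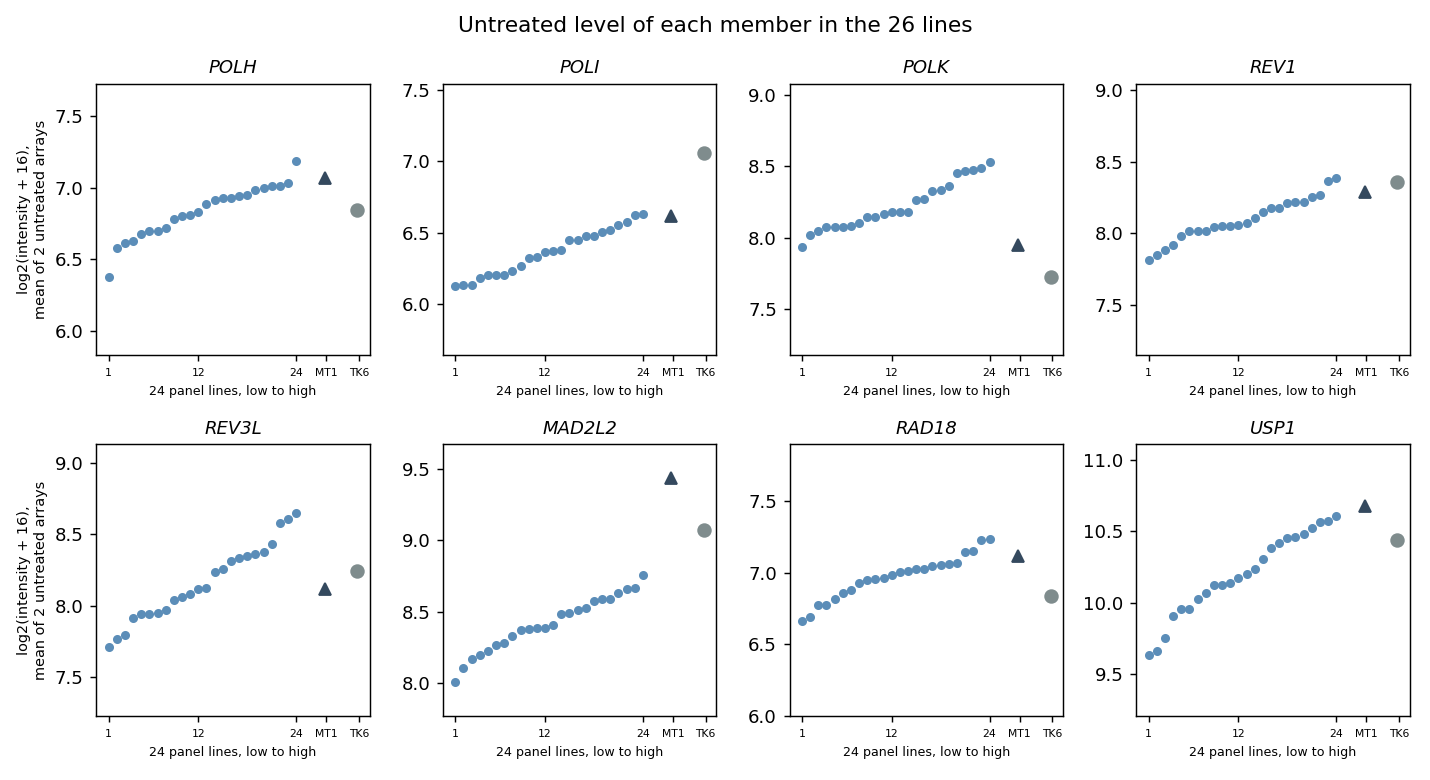
Untreated level of each member (log2 of intensity plus 16, mean of 2 arrays) in the 24 panel lines ordered from low to high, then MT1 (triangle) and TK6 (grey circle); each panel spans 1.9 units. MAD2L2 in MT1 (9.44) and TK6 (9.07) and POLI in TK6 (7.06) lie above every panel line, and POLK in TK6 (7.73) lies below them.

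Across the mean untreated levels of the 26 lines, the genes most like each member by Pearson r were as follows, as a description in which all points share arrays and normalisation. For USP1 they were FBXO5 (r = 0.94) and E2F8 (r = 0.93), an inhibitor of the anaphase-promoting complex and a cell-cycle transcription factor. For MAD2L2 they were OTUD3 and ENTREP3 (both r = 0.90). For REV3L the nearest was TJAP1 (r = 0.82), for REV1 DCP1A (0.81) and for POLK BTN2A3P (0.80). POLH, RAD18 and POLI had no gene above 0.78, their nearest being LINC01310 (0.78), MOV10 (0.75) and YIPF6 (0.74). Between members the highest r was 0.60, for REV1 and USP1, and the lowest -0.52, for POLK and MAD2L2. TK6 and its derivative MT1 rank 2 and 1 from the highest of the 26 lines for MAD2L2, and 26 and 24 for POLK. No r was computed without them.

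Different probe sets of one member did not always move alike. Of the 24 probe sets, 21 passed the filter when each was tested on its own. In the panel 7 of the 21 rose and 6 fell, against 41.8% of all 28768 probe sets called. In TK6 7 rose and 4 fell (36.2% of all called), in MT1 1 fell (2.94% of all), and the difference between TK6 and MT1 was called for 4 (18.8% of all), each of them a POLH probe set.

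POLH has 6 probe sets, and 233852_at, the brightest, stood for the gene above. In TK6 5 of the 6 rose: 233852_at by 1.66, 231115_at by 1.16, 222879_s_at by 1.01, 1557701_s_at by 0.59 and 219380_x_at by 0.46. The exception was 1557700_at (0.05, adjusted p = 0.823). Its mean level was 5.71, on the scale that starts at 5, and that of 231115_at was 5.77. In the panel 233852_at rose by 0.22, 219380_x_at by 0.20 and 231115_at by 0.13, whereas 1557701_s_at changed by -0.42 and 222879_s_at by -0.16, both called. The mean of all 6 in the panel was -0.004, so the panel rise belongs to some POLH probe sets and not to others. In MT1 1557701_s_at fell by 0.86 (adjusted p = 0.0284). The difference from MT1 was called in 4 of the 6, all but 219380_x_at and 1557700_at.

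For POLK the brightest probe set, 223261_at, did not pass in the panel, while 223260_s_at was lower after MNNG in 19 of 19 lines, by -0.28 ± 0.04 (adjusted p = 5.42e-06), and fell by 0.50 in TK6. REV1 split as well: 218428_s_at rose by 0.12 and 222629_at by 0.16 in the panel, and 222628_s_at fell by 0.20. In TK6 222629_at rose by 0.48 (adjusted p = 0.0124), with 218428_s_at at 0.08 and 222628_s_at at 0.02, neither called. USP1 agreed, with -0.17 at both 202413_s_at and 202412_s_at, and in TK6 202412_s_at fell by 0.40 (adjusted p = 0.0212). For REV3L only 208070_s_at rose in TK6, with 238736_at at 0.12 (adjusted p = 0.662). For RAD18 the brightest, 224200_s_at, and 238670_at were not called in the panel, while 223417_at rose by 0.10 (adjusted p = 0.0284) and was higher in 15 of 19 lines. For POLI 238992_at rose in the panel by 0.09 (adjusted p = 0.0498), and 219317_at, the brightest, did not pass. In TK6 219317_at fell and 238992_at was at -0.06 (adjusted p = 0.77). MAD2L2 has 1 probe set, 223234_at. The 3 that did not pass the filter were 1555317_at of POLK, 243592_at of REV1 and 238748_at of RAD18. The suffixes _s_at and _x_at mark probe sets designed to match several transcripts or to share probes with other sequences.

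**Figure D4:**
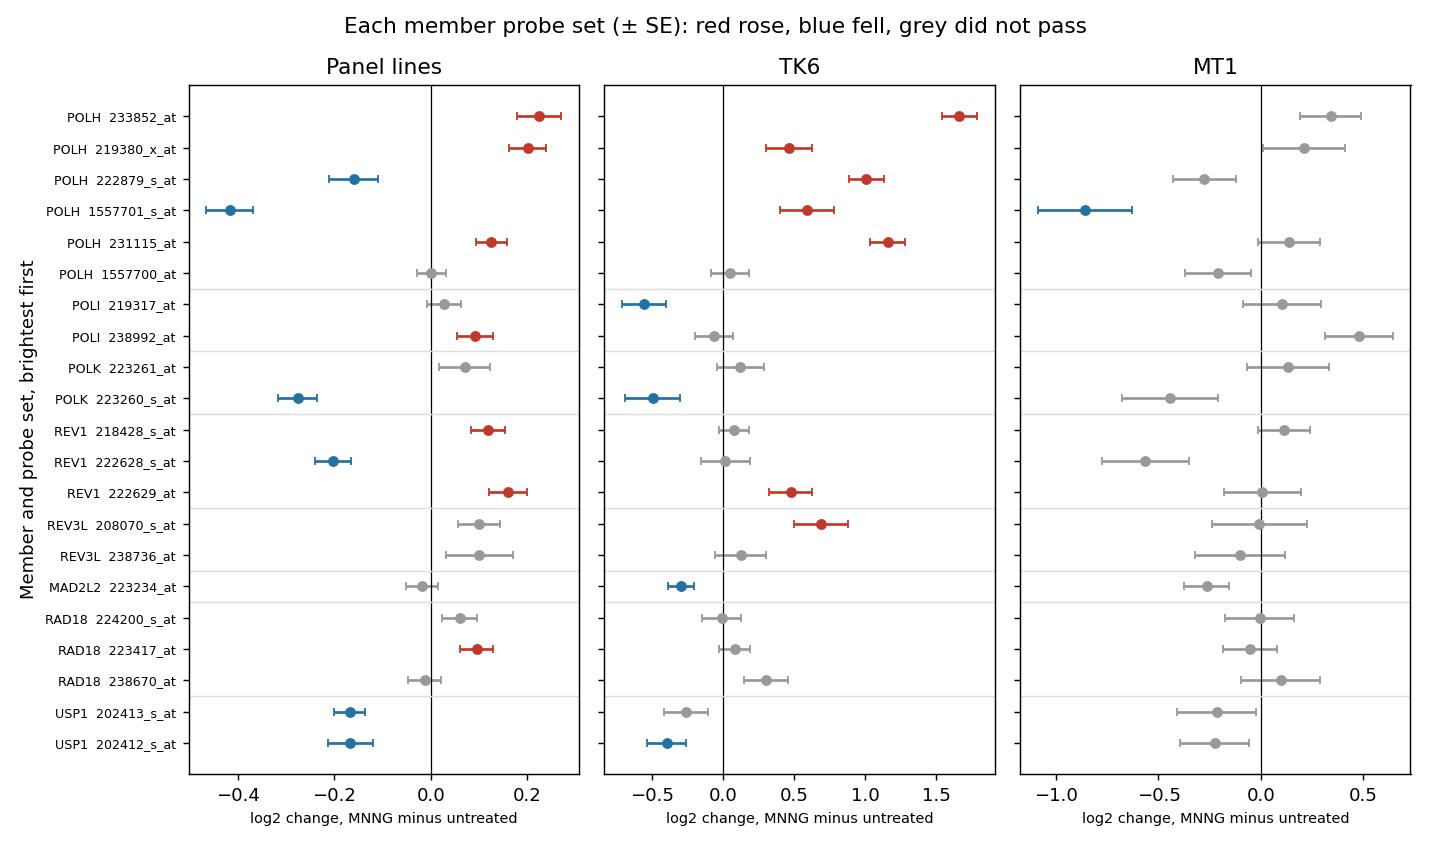
Change after MNNG (log2, ± SE) of the 21 member probe sets tested, in the panel lines, TK6 and MT1, grouped by gene with the brightest first; red rose, blue fell, grey did not pass, and the 3 horizontal scales differ. In TK6 5 of the 6 POLH probe sets rose, while in the panel 3 rose and 2 fell.

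CDKN1A encodes the cyclin kinase inhibitor p21, a classic target of p53 after DNA damage, and was used to ask whether lines with a larger damage response changed the members more. It changed by 2.95 in TK6 and 0.09 in MT1. In the 19 panel lines its change ran from -0.23 to 1.29, with 15 lines at or below 0.50 and 4 at or above 0.77. Both changes of a line come from the same arrays. POLH correlated with it at r = 0.47 (Spearman rho = 0.15, permutation p = 0.0421 and 0.542, n = 19), and after adjustment over the 8 members p was 0.145 and 0.813. Without the 2 lines farthest from the median CDKN1A change, lines 4 and 1, r was 0.11, so the relation was not seen without this pair. Their POLH changes were 0.79 in line 4 and 0.22, the panel median, in line 1, each with 1 MNNG array. No r was computed without line 4 alone.

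USP1 ran the other way, at r = -0.52 and rho = -0.58 (permutation p = 0.0228 and 0.01, adjusted 0.145 and 0.0804, two-sided). Without the 2 farthest lines r was -0.46. It was -0.35 in the 8 lines with both MNNG arrays (exact permutation p = 0.368) and -0.63 in the 11 lines with 1. When USP1 and CDKN1A were read from different replicates of the 8 lines, r was -0.13 and -0.32. MAD2L2 had r = -0.45 (adjusted permutation p = 0.145) and the other 5 members lay between -0.13 and 0.27. None of the 8 relations passed adjustment in this main setting. With arrays centred on their medians POLH (r = 0.66, adjusted permutation p = 0.0162) and REV3L (r = 0.62, adjusted permutation p = 0.021) passed. With the mean of all probe sets USP1 passed (r = -0.70, adjusted permutation p = 0.00728). Their Spearman rho did not pass there (adjusted permutation p = 0.219, 0.253 and 0.0996). With arrays centred on their medians the direction turned for USP1 (r = 0.44, adjusted permutation p = 0.0833), REV1 (r = 0.45, the same p) and MAD2L2 (r = 0.29, adjusted permutation p = 0.225). Within the 15 lines at or below 0.50, a split chosen after the data were seen, r was -0.28 for POLH and -0.24 for USP1 (both adjusted permutation p = 0.892).

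**Figure D5:**
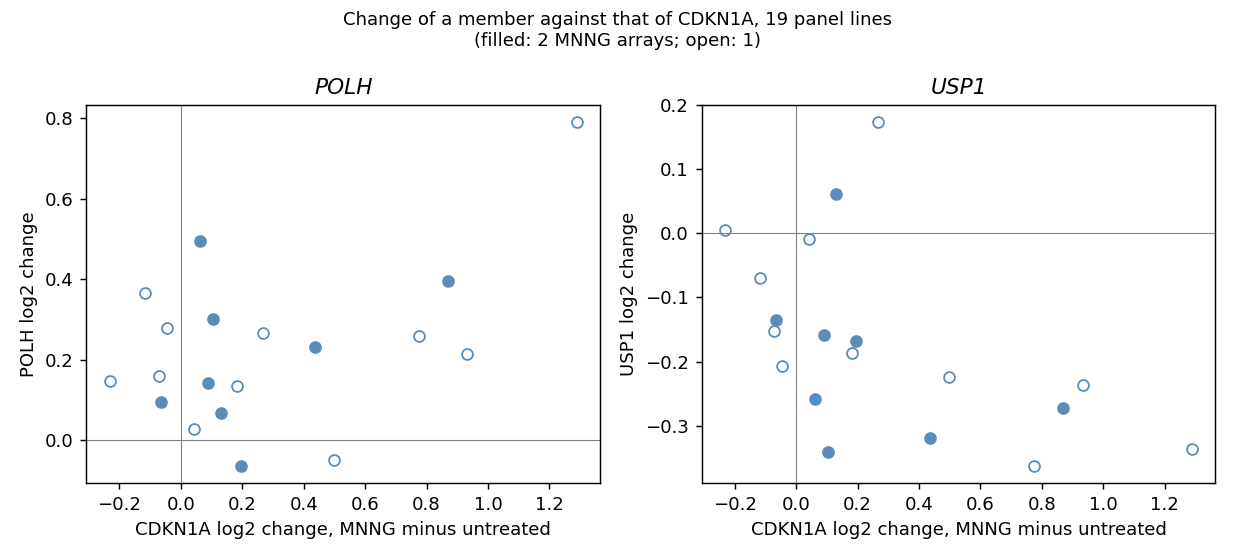
Change after MNNG (log2) of POLH and of USP1 against that of CDKN1A in the 19 panel lines; filled points have 2 MNNG arrays and open points 1. Line 4, at a CDKN1A change of 1.29 and a POLH change of 0.79, stands apart, and without the 2 farthest lines r for POLH is 0.11.

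Other genes of the pathway were counted from lists of the PCNA-modifying factors, the other DNA polymerases and primases, and the clamp loader with RPA: 42 genes, of which 40 were tested. In TK6 20 rose and 6 fell after MNNG, against 21.6% and 19.5% of all genes, with a median change of 0.27 beside -0.03 over all genes. The lists differed. Of 15 PCNA-modifying factors tested, 6 rose and 4 fell, with a median change of -0.07. Of 17 other polymerases and primases, 8 rose and 2 fell (median 0.20). Of the 8 genes of the clamp loader and RPA, 6 rose and 0 fell (median 0.40). In MT1 the 2 called, USP7 and DTL, both fell, against 3.56% of all genes called. The difference between the responses was called for 13, 11 up and 2 down, against 12.2% and 12.5% of all genes. PCNA, the clamp itself, rose 2.19-fold in TK6 (1.13 ± 0.11, adjusted p = 2.13e-11), and by 0.80 more than in MT1. The replicative polymerase subunit POLE4 rose by 1.20, the protease SPRTN by 0.90, the single-strand binding subunit RPA1 by 0.90, the end-joining polymerase POLQ by 0.88 and the primase PRIMPOL by 0.79. POLD2, a subunit of polymerase delta, fell by 0.69.

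In the panel 31 of the 40 were called, 19 up and 12 down, against 28.7% and 13.8% of all genes, with a median change of 0.07 beside 0.04 over all genes. Of the 15 PCNA-modifying factors tested, 7 rose and 5 fell, with a median change of 0.06. ATAD5, which unloads PCNA and recruits the USP1 complex to it, fell by 0.33, RFWD3 by 0.33, and USP7, another deubiquitinase, by 0.28. WDR48, the activating partner of USP1, fell by 0.26 in the panel (adjusted p = 8.26e-06) and by 0.66 in TK6 (adjusted p = 0.00475), and was picked for naming after its values were seen. UBE2V2, a subunit of the enzyme that extends ubiquitin chains on PCNA, rose by 0.28 and POLE4 by 0.26. Untreated MT1 differed from TK6 in 13 of the 40, 9 higher and 4 lower, against 13.6% and 11.7% of all genes, with the clamp loader subunit RFC1 lowest (-1.08) and the primase-bound polymerase subunit POLA1 highest (0.77).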

How the data were processed

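The deposited values are intensities on a linear scale made by the authors with PLIER, per the submitters' processing notes (neither its version nor any batch is stated there). They run from 16 to 65535, which 71 values reach. Array medians were 16.0 to 64.4, and a large share of the probe sets sits close to that floor; the number of arrays limits the precision. All columns of the value table matched a sample.

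Values were taken as log2 of the intensity plus 16 and quantile normalised over the 82 arrays used. A gene was represented by its brightest probe set among 41097 with a single symbol, and the lowest 30% of genes were left out. Tests used limma 3.58.1 in R 4.3.3 (with the data.table package, version 1.17.8) with Benjamini-Hochberg adjustment over all genes tested. The panel fit averaged duplicates and blocked by line, the TK6 and MT1 contrasts came from 1 model over all 52 groups less those with no array, and differences between lines were F tests on single arrays. Correlations used 100000 two-sided permutations, exact over 8 lines (Python 3.11.15, matplotlib 3.10.9 for figures). The scripts were tested on simulated data. Promoter windows are RefSeq's.

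The members, the lists and the rule for arrays left out were chosen with earlier results of these data known. All members and their probe sets are named, with up to 4 called genes per list and comparison, the 2 genes most like each member (1 is named for some), CDKN1A and MGMT. WDR48 is named outside this rule. Replicate numbers were checked in the 9 lines with 2 arrays of each kind: deviations of same-numbered arrays correlated at -0.62 to 0.14, above 0.1 in 2 lines, so the numbers were not taken as pairs. The check could not reach the 11 panel lines with 1 MNNG array, where that array is set against the mean of both untreated arrays. Untreated REV3L in replicates 1 and 2 was 8.61 and 8.01 in line 15, and 7.82 and 8.01 in line 4. The part of the replicate number in the changes of these lines was not tested. Alternatives were other pseudocounts, scalings, filters, probe set choices, weights and blocks, all arrays, and leaving out lines or arrays.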

Additional observations from a re-analysis of the deposited data

Results flagged for a closer look

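POLH: its MNNG change was larger in TK6 than in MT1 by 1.32 on the log2 scale, a difference between the lines that passed its own limma test. POLI: its change in TK6 minus that in MT1 was -0.66, which also passed, and 12 of 19 alternatives lost that call.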

How the results depend on the processing

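Counts below are limma calls, with the reported value in brackets where it is given. Among the 8 members, the TK6 minus MT1 response was called in 1 [2] with a pseudocount of 1, with no filter, with each probe set on its own (counting each gene's brightest), with values as deposited, with arrays centred on their medians and with the TK6 and MT1 arrays alone, and in 0 with all arrays. With values as deposited, calls were 2 [4] members and 3623 [5697] genes in TK6, 99 [493] genes in MT1, 1294 [3415] genes for TK6 minus MT1, 0 [2] members and 1591 [3494] genes for untreated MT1 minus TK6, 54 [935] genes for response differences between lines, and 2 [7] members and 5852 [8894] genes for untreated differences between lines. That scaling put the median of all genes at 0.31 in MT1 [0.03], 0.12 in TK6 [-0.03] and -0.20 for TK6 minus MT1 [-0.04], so its member changes are relative to those shifts. With arrays centred on their medians, calls were 1 [3] member and 3291 [5892] genes in the panel (REV1 -0.00815 [0.12]), 67 genes in MT1 (median of all genes -0.13), 1682 for TK6 minus MT1, 0 members and 2057 genes for untreated MT1 minus TK6, and 372 genes for response differences; 2 [0] members, POLH (r = 0.66) and REV3L (r = 0.62), then passed against CDKN1A, and r turned for USP1 (0.44), MAD2L2 (0.29) and REV1 (0.45). The mean of all probe sets gave 1 panel member (POLH -0.00425 [0.22]), 1 [0] response difference (POLK) and 1 relation with CDKN1A (USP1, r = -0.70). Array weights gave 934 genes in MT1, 1 member for untreated MT1 minus TK6, and 1 member (POLH) and 2419 genes for response differences. With all arrays, 7 members and 9685 genes were called in the panel (POLK -0.69 [0.07], REV1 -0.47), 0 members and 464 genes in TK6, 14 genes in MT1, 126 genes for TK6 minus MT1, 0 members and 178 genes for untreated MT1 minus TK6, and 264 genes for response differences; 6 members passed against CDKN1A, with r turned to -0.76 for POLI [0.06], 0.67 for REV1 [-0.13], 0.83 for MAD2L2 [-0.45], -0.81 for RAD18 [0.02] and 0.90 for USP1 [-0.52]. With no line block the panel had 1 member and 2097 genes, and the lines with both MNNG arrays gave 2407 genes. The TK6 and MT1 arrays alone gave 1 gene in MT1, 2131 for TK6 minus MT1, and 1 member for untreated MT1 minus TK6. The replicate block raised the MT1 count to 740 genes and moved no other count of calls by over 1.5 times.

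Leaving out 1 replicate number gave 0 to 2 panel members and 1207 to 4503 genes, the lowest without replicate 1. Leaving out 1 line gave 3 to 4 members and 5527 to 6253 genes in the panel, and 470 (without line 4) to 1068 genes for response differences. Leaving out 1 array of TK6 or untreated MT1 gave 2 to 4 members in TK6, 212 (without untreated MT1 replicate 1) to 507 genes in MT1, 1 to 2 members for TK6 minus MT1 and 1 to 2 for untreated MT1 minus TK6. A whole replicate number was not left out of the F tests or the TK6 and MT1 contrasts, where no duplicates would remain. No alternative called a member by its representative probe set in MT1, which rests on 1 MNNG array; POLH probe set 1557701_s_at, tested on its own, was called. The cause of these shifts was not tested. Levels near the intensity floor understate changes.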
